A study of Mus musculus with 6 samples.

Results

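Ski, Skil, Tgif1, Tgif2, Smurf1, Smurf2 and Pmepa1 encode proteins that restrain signalling through the SMAD transcription factors. They were taken by name as a set of 7 genes out of 34981 in the deposited table, and all 7 were present and passed the filter on low counts. RNA sequencing compared spheroids of the mouse melanoma line B16F10, embedded in the basement membrane gel Matrigel, with BMP2 at 100 ng/ml for 10 days or with PBS as the control. Each group had 3 libraries, and each of the 3 batches held 1 library of either group. All libraries come from the same cell line, seeded at 500 cells in 50 µl of Matrigel at 7 mg/ml, and no stromal cells are named in the labels. Each library is RNA from a whole culture, so fewer cells with a transcript and less transcript per cell cannot be told apart.

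BMP ligands activate SMAD1, SMAD5 and SMAD9, and transforming growth factor-beta (TGF-beta) and activins activate SMAD2 and SMAD3. Either kind joins SMAD4 and acts on target genes in the nucleus. SKI and SnoN, the product of Skil, bind SMADs on DNA and recruit NCoR and histone deacetylases, and TGIF1 and TGIF2 are homeodomain corepressors of SMAD2 and SMAD3. SMURF1 and SMURF2 are ubiquitin ligases that mark SMADs and receptors for degradation. PMEPA1 is a membrane protein that keeps SMAD2 and SMAD3 from the receptor and binds ligases of the NEDD4 family through PY motifs. Skil and Pmepa1 are known target genes of TGF-beta signalling, and SKI protein is abundant in many human melanomas.

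The coding stretches with PY motifs are shown because they set PMEPA1 apart from the other members and link it to the ligases. The pattern searched was the codons CCN, CCN, NNN and then TAT or TAC in the reading frame, on the coding strand, in the longest complete coding sequence of each gene in GENCODE M21 (GRCm38). It encodes a pair of prolines, any residue and a tyrosine. Pmepa1 held 2 matches in 274 codons, at codons 150 to 153 and 221 to 224, and Ski, Skil, Tgif1, Tgif2, Smurf1 and Smurf2 held 0. Of 21512 coding genes, 6.03% held at least 1 match and 0.711% at least 2. The stretches lie on the minus strand at chr2:173228164-173228223 and chr2:173227951-173228010, and capitals mark the match.
Pmepa1 site 1: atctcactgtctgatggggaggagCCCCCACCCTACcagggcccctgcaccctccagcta
Pmepa1 site 2: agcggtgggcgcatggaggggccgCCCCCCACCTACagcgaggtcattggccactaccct

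RefSeq promoters on GRCm38.p6 were at hand for 5 of the 7 members, not for Skil and Pmepa1. The part upstream of the start of Ski, a corepressor gene that, like Skil, was higher with BMP2 in each batch, is shown. Beside it is that of Smurf2, which differed in sign between batches. The groups overlapped for Ski and for Smurf2. Capitals mark GGCGCC, a GC-rich site of BMP-type SMADs, searched on both strands, which this palindrome shares. Over windows of 300 bases it was found in 11.9% of 32851 promoters, once in Ski, at 2 places in Smurf2 and at 0 in Tgif1, Tgif2 and Smurf1. The shorter SMAD box CAGAC, searched on both strands, was found in 49.6% of all promoters, at 0 places in that of Ski and at 2 in that of Smurf2. A match is a run of letters in this window and was not tested for binding. The stretches are chr4:155222593-155222785 and chr11:106920716-106920965, both on the minus strand. They are 193 and 250 bases long, shorter than the windows counted, and that of Smurf2 holds 1 of its 2 CAGAC matches, not in capitals.
Ski upstream: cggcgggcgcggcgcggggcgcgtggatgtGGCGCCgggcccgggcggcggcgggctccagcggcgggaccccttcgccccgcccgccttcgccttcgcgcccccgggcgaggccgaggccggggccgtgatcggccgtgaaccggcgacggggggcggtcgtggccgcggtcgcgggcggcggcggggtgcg
Smurf2 upstream: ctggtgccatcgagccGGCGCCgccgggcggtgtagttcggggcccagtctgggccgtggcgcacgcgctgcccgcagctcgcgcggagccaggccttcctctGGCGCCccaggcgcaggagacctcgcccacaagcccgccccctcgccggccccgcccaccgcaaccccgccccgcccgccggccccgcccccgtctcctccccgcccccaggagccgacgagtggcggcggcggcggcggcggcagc

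The libraries held 27821900 to 36856500 estimated counts. Values are CPM, counts scaled to depth with TMM factors, and 3 counts correspond to at most 0.103 CPM. On the first principal component BMP2 libraries 1, 2 and 3 lay at -16.8, 24.1 and 55.5. PBS libraries 1, 2 and 3 lay at -79.7, -4.85 and 21.8, so batch 1 was lowest and batch 3 highest in both groups. PBS 1 lay lowest of all, and log2 fold changes of Skil, Ski and Smurf2 and the Skil over Ski ratio are also given without it. For Tbl1xr1 and Col4a1 a fit without batch 1 is given. Other list genes are not given without PBS 1. The melanocyte markers Mitf, Tyr, Tyrp1, Dct, Pmel, Mlana and Sox10 were detected in every library, with sums of 28900 to 39100 CPM with BMP2 and 23700 to 26300 CPM with PBS. All 7 were higher with BMP2 in every batch, against 22.8% of all tested genes, with 0 past the threshold in either fit. By edgeR, 2 had an unadjusted p under 0.05 without batch as a block and 7 with it. Over all tested genes these shares were 5.38% and 17%. The part of the markers in the results below was not tested. Leukocyte markers summed to at most 0.197 CPM in any library, endothelial markers to 2.16, epithelial markers to 0.759 and fibroblast markers to 8.52, the last mostly Pdgfra, while no library had a count of Adgre1, Cdh5 or Tek.

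Of the 7 genes, Skil rose with BMP2 in the model with batch as a block, by 1.19 on the log2 scale (SE 0.15). In the main model, without the block, Skil did not pass the threshold of 0.05 over all genes (edgeR adjusted p 0.33). Pmepa1 had the largest difference of the set, 1.93 (SE 0.38) with the block, but did not pass the threshold of 0.05 in either model. Ski was higher with BMP2 in each batch and also did not pass, and for Tgif1, Tgif2, Smurf1 and Smurf2 the groups overlapped and the 95% interval of the log2 fold change included 0. In counts, 0 of 7 passed without the block and 1 of 7, Skil, with it, by the quasi-likelihood test of edgeR with Benjamini-Hochberg adjustment. Over all 12929 tested genes, 0.0464% passed without the block (0.00773% higher and 0.0387% lower with BMP2) and 0.735% with it (0.371% higher and 0.364% lower). At an unadjusted p under 0.05 without the block there were 2 members, Skil and Pmepa1, against 5.38% of all genes, and with the block there were 3, Ski being added, against 17% of all genes. The DESeq2 Wald test without the block called the same 2 members, at adjusted p of 0.00933 and 0.0147, against 1.03% of all genes, and with the block it also called both, against 5.25%. Groups that did not overlap were found in 2 members, both higher with BMP2, and in 0 lower, against 6.42% and 5.72% of all genes. Ski, Skil and Pmepa1 were higher in all 3 batches and Tgif1 and Smurf1 lower in all 3, against 22.8% and 21.1% of all genes. The median log2 fold change of the 7 with the block was 0.021, against 0.014 over all tested genes.

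**Figure D1:**
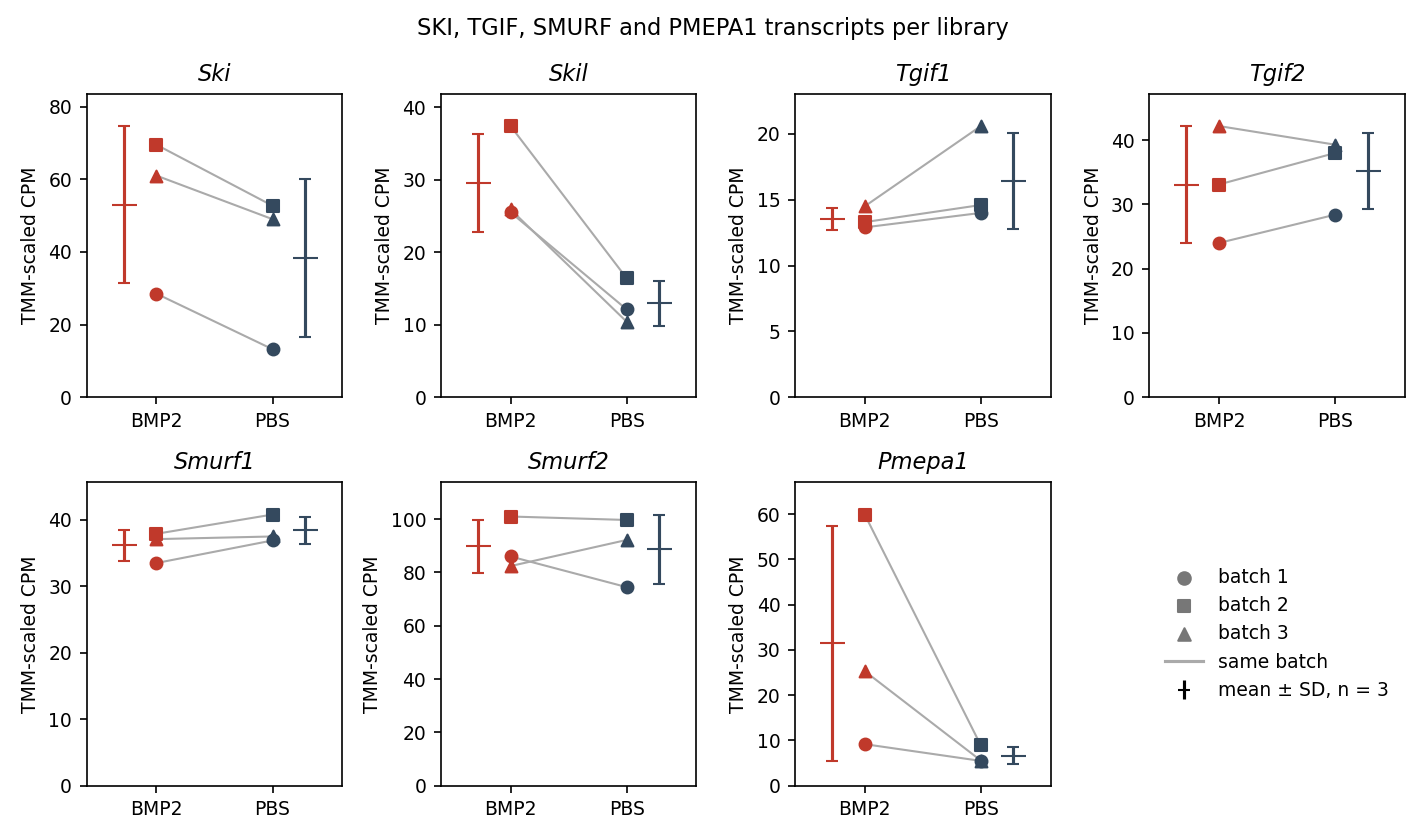
TMM-scaled CPM (y axis, from 0) of the 7 genes in the 3 BMP2 and 3 PBS libraries (x axis); symbols mark the batch, lines join libraries of the same batch, and bars give mean ± SD. For Skil and Pmepa1 every BMP2 point lies above every PBS point, while the points of the other genes overlap between the groups.

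Skil encodes SnoN, the corepressor closest to SKI (ENSMUSG00000027660, GRCm38 chromosome 3, 31095058 to 31122577, plus strand). It was at 25.5, 37.4 and 25.9 CPM in BMP2 libraries 1, 2 and 3, against 12.1, 16.4 and 10.4 CPM in PBS libraries 1, 2 and 3. The lowest BMP2 library lay above the highest PBS library. The means were 29.6 ± 6.8 CPM with BMP2 and 13.0 ± 3.1 CPM with PBS (SD, n = 3 each), a ratio of 2.28. Within batches 1, 2 and 3 the log2 differences were 1.07, 1.19 and 1.31, a range of 0.241, where the median range over all tested genes was 0.58. The log2 fold change was 1.19 in both models. Its edgeR adjusted p was 0.33 without the block and 0.036 with it, and 1.27e-06 to 0.0425 over 6 fits with the block that varied the tool, scaling and filter. With the block and without batch 2 the log2 fold change of Skil was 1.20 at an edgeR adjusted p of 0.207. Without PBS 1 and without the block it was 1.14.

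Pmepa1 (ENSMUSG00000038400, chromosome 2, 173224458 to 173276533, minus strand) was at 9.17, 59.9 and 25.3 CPM in BMP2 libraries 1, 2 and 3, against 5.47, 8.88 and 5.54 CPM in PBS libraries 1, 2 and 3. The groups did not overlap, but BMP2 1 was only just above PBS 2, and the BMP2 libraries spanned a ratio of 6.53 between the highest and the lowest, against 1.62 in PBS. The means were 31.5 ± 25.9 CPM with BMP2 and 6.63 ± 1.95 CPM with PBS (SD, n = 3 each), a ratio of 4.75. Within batches 1, 2 and 3 the log2 differences were 0.741, 2.75 and 2.18. The log2 fold change was 2.25 (SE 0.61) without the block and 1.93 (SE 0.38) with it. The edgeR adjusted p was 0.567 without the block and 0.0901 with it, and 1.58e-06 to 0.117 over the same 6 fits. The size rested in part on BMP2 replicate 2, without which the log2 fold change of Pmepa1 was 1.37 without the block. With the block, Pmepa1 passed without batch 1 (edgeR adjusted p 0.00165) and without batch 3 (0.00627), and was at 0.3 without batch 2.

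Ski, the proto-oncogene that gives the family its name (ENSMUSG00000029050, chromosome 4, 155154075 to 155222592, minus strand), varied more between batches than between treatments. It was at 28.5, 69.5 and 61.0 CPM in BMP2 libraries 1, 2 and 3, against 13.2, 52.7 and 49.0 CPM in PBS libraries 1, 2 and 3. Both libraries of batch 1 were low, the groups overlapped, and the PBS libraries spanned a ratio of 3.99 where the median tested gene spanned 1.58. Within batches the log2 differences were 1.11, 0.397 and 0.315, all above 0. The log2 fold change of Ski was 0.47 (SE 0.52) without the block and 0.60 (SE 0.19) with it, at edgeR adjusted p of 0.894 and 0.21. The difference was largest in batch 1. Without PBS 1 and without the block the log2 fold change of Ski was 0.0533. That fit kept BMP2 1, itself low, without its batch partner, so it mixes batch with treatment. Without batch 1 the log2 fold change was 0.349 with the block (edgeR adjusted p 0.14).

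**Figure D2:**
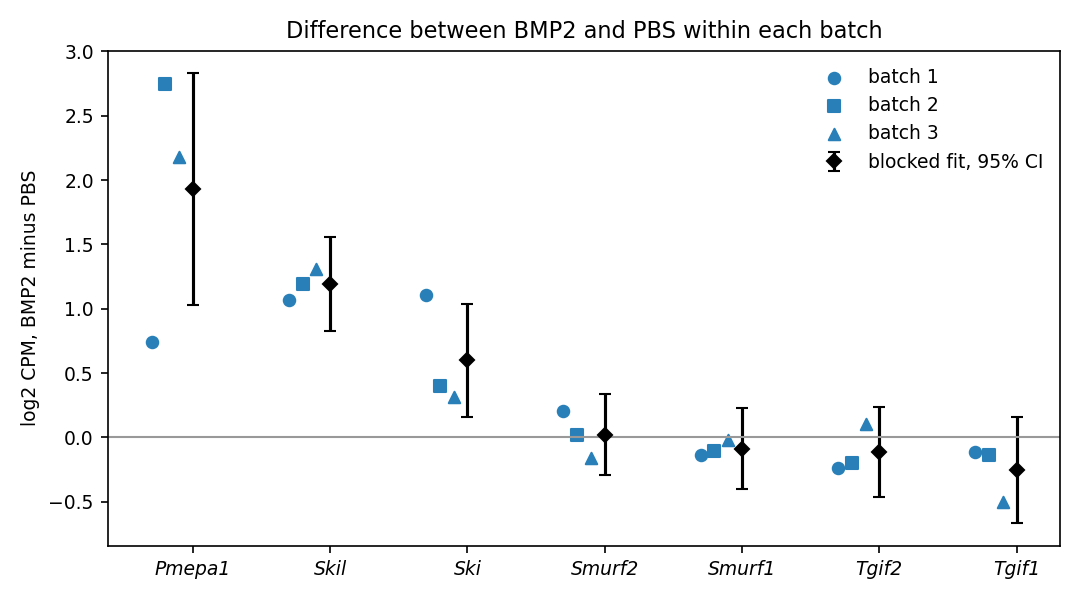
Log2 difference in CPM between BMP2 and PBS (y axis) for each gene (x axis); blue symbols are the 3 batches, and black diamonds with bars are the estimate of the blocked model and its 95% confidence interval. Skil lies between 1.07 and 1.31 in the 3 batches, Pmepa1 between 0.741 and 2.75, and the intervals of both SMURF and both TGIF genes include 0.

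The TGIF genes encode corepressors that bind SMAD2 and SMAD3, of which TGIF1 also recruits the corepressor CtBP. Tgif1 (chromosome 17, 70844205 to 70853546, minus strand) was at 12.9, 13.3 and 14.5 CPM in BMP2 libraries 1, 2 and 3, against 14.0, 14.6 and 20.6 CPM in PBS libraries 1, 2 and 3. It was lower with BMP2 in each batch, with log2 differences of -0.112, -0.137 and -0.504 in batches 1, 2 and 3, but the groups overlapped and PBS 3 stood above the rest. With the block the log2 fold change of Tgif1 was -0.25, with a 95% interval of -0.667 to 0.161 (edgeR adjusted p 0.483). Tgif2 (chromosome 2, 156840007 to 156855570, plus strand) was at 24, 33.1 and 42.2 CPM in BMP2 libraries 1, 2 and 3, against 28.4, 38 and 39.3 CPM in PBS libraries 1, 2 and 3. Its levels followed the batch in both groups, lowest in batch 1. With the block the log2 fold change was -0.11, with a 95% interval of -0.46 to 0.234 (edgeR adjusted p 0.71), and its sign turned without BMP2 replicate 1 when the block was left out (0.0956).

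The count of Tgif2 is the least certain of the set. Of its 31-mers in annotated transcripts, 20.9% occur on the same strand in other genes, mainly the processed pseudogene Tgif2-ps2, and 58.8% on the opposite strand, mainly in 5430405H02Rik, a non-coding gene at 156844351 to 156862963 on the minus strand of chromosome 2. The pseudogenes Tgif2-ps1 and Tgif2-ps2 held 1.02 and 0 estimated counts over all libraries, against 7060 for Tgif2. The overlapping gene was not analysed here, and no source used here states the strand setting of the counting, so reads from either gene cannot be told apart. Skil, Tgif1, Smurf1 and Pmepa1 shared 0% of their 31-mers with other genes, Ski 0.126% and Smurf2 0.449%, so that the members of a pair do not take reads from each other through identical stretches of that length.

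SMURF1 and SMURF2 are ligases of the NEDD4 family, and both act on BMP and TGF-beta receptors together with inhibitory SMADs. Smurf1 (chromosome 5, 144876495 to 144965847, minus strand) was at 33.5, 37.9 and 37.1 CPM in BMP2 libraries 1, 2 and 3, against 36.9, 40.8 and 37.5 CPM in PBS libraries 1, 2 and 3. It varied little, with a ratio of highest to lowest library of 1.13 with BMP2 and 1.11 with PBS. Its log2 fold change with the block was -0.09, with a 95% interval of -0.4 to 0.226 (edgeR adjusted p 0.754). Smurf2 (chromosome 11, 106820066 to 106920715, minus strand) was at 86.0, 101 and 82.4 CPM in BMP2 libraries 1, 2 and 3, against 74.5, 99.7 and 92.2 CPM in PBS libraries 1, 2 and 3. The groups overlapped and the batches differed in sign. Its log2 fold change with the block was 0.02, with a 95% interval of -0.292 to 0.334 (edgeR adjusted p 0.947). Shifts as far as a log2 difference of -0.4 in Smurf1 or 0.334 in Smurf2 therefore lie within the intervals.

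Levels of different genes were compared as CPM per kilobase of annotated exon. Smurf2 stood highest in both groups, at 14.6 ± 1.6 with BMP2 and 14.4 ± 2.1 with PBS (SD, n = 3 each). Below it, with BMP2, came Ski at 9.53 ± 3.89, Tgif2 at 8.63 ± 2.37, Pmepa1 at 6.40 ± 5.28 and Smurf1 at 5.71 ± 0.37 CPM per kilobase, whose library values overlapped each other in part. Skil at 3.05 ± 0.70 and Tgif1 at 2.42 ± 0.15 CPM per kilobase closed the order with BMP2, and the lowest Skil library, at 2.63, was just above the highest Tgif1 library, at 2.58. The Pmepa1 libraries, at 1.87 to 12.2, spanned the values of both. With PBS the order below Smurf2 was Tgif2 at 9.19 ± 1.55, Ski at 6.89 ± 3.92, Smurf1 at 6.06 ± 0.33, Tgif1 at 2.92 ± 0.65, Pmepa1 at 1.35 ± 0.40 and Skil at 1.34 ± 0.32 CPM per kilobase. On this measure Skil and Pmepa1 shared the lowest place in the control, with overlapping libraries, and both lay below every PBS library of Tgif1. The divisor counts all annotated exons, 9694 bases for Skil, 4913 for Pmepa1 and 5625 for Tgif1, whichever transcripts were expressed. In CPM the PBS means were 13.0 for Skil, 6.63 for Pmepa1 and 16.4 for Tgif1, so the place of Skil depends on it.

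Within pairs of related genes, a ratio of counts in the same library does not depend on scaling. The log2 ratio of Skil over Ski was -0.159, -0.893 and -1.24 in BMP2 libraries 1, 2 and 3, against -0.12, -1.68 and -2.24 in PBS libraries 1, 2 and 3. Ski itself was higher with BMP2 in each batch, with log2 differences of 1.11, 0.397 and 0.315 in batches 1, 2 and 3. Within batches the ratio differed by -0.0386, 0.79 and 1.00, so Skil gained on Ski in batches 2 and 3 and not in batch 1. The mean difference of 0.584 had a p of 0.5 in a two-sided exact permutation test over the 6 libraries (adjusted over 3 pairs 0.7), where the smallest possible p is 0.1. It was 1.20 without PBS 1 and 0.139 without PBS 3. The ratio of Tgif2 over Tgif1 differed by 0.139 (exact permutation p 0.7) and that of Smurf2 over Smurf1 by 0.108 (exact permutation p 0.5), with batches of either sign and groups that overlapped in both pairs.

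**Figure D3:**
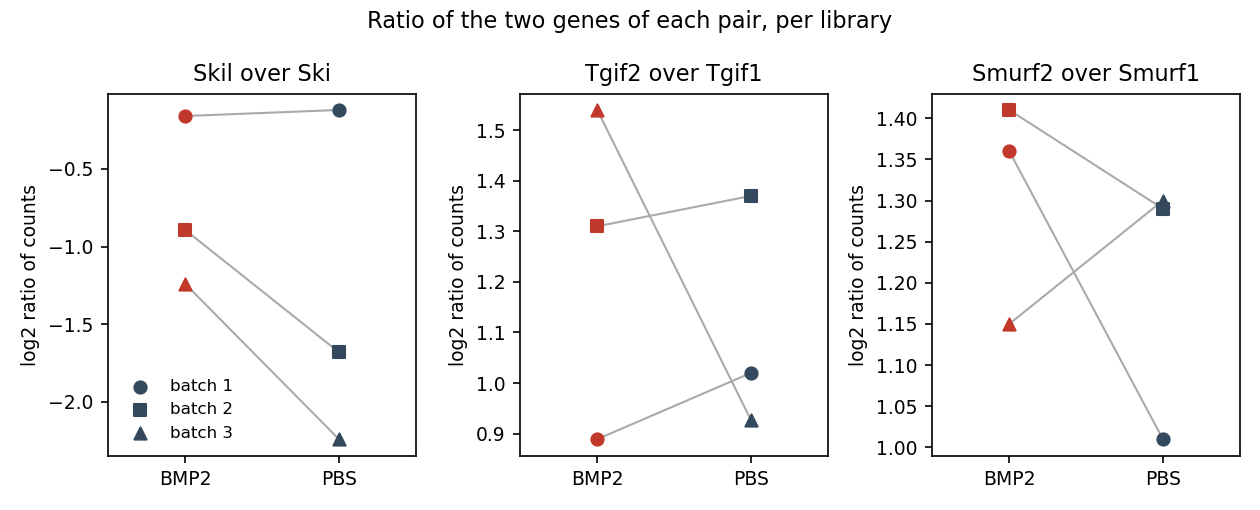
Log2 ratio of counts (y axis) of Skil over Ski, Tgif2 over Tgif1 and Smurf2 over Smurf1 in BMP2 and PBS libraries (x axis); symbols mark the batch and lines join libraries of the same batch. The ratio of Skil over Ski is higher with BMP2 in batches 2 and 3 and at -0.159 against -0.12 in batch 1, and the groups overlap in all 3 pairs.

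The genes of the pathway did not all peak in the same BMP2 library. Among BMP2 libraries, Skil and Pmepa1 were highest in batch 2, at 37.4 and 59.9 CPM, as they were among PBS libraries, at 16.4 and 8.88 CPM. Of the other members, Tgif1 and Tgif2 were highest in BMP2 library 3, at 14.5 and 42.2 CPM. Ski, Smurf1 and Smurf2 were highest in BMP2 library 2, at 69.5, 37.9 and 101 CPM. Smad7, an inhibitory SMAD gene that responds to both branches, was also highest there, at 4.52, 19.8 and 7.84 CPM in BMP2 libraries 1, 2 and 3, against 6.02, 5.85 and 4.22 CPM in PBS libraries 1, 2 and 3. Smad6, the inhibitory SMAD gene of the BMP branch, was highest in batch 3, at 3.70, 11.0 and 21.4 CPM in BMP2 libraries 1, 2 and 3, against 1.07, 0.927 and 0.659 CPM in PBS libraries 1, 2 and 3. Smad9, Id2 and Atoh8 were also highest in batch 3, at 26.4, 717 and 8.56 CPM, while Nog, which encodes the BMP antagonist noggin, was highest in batch 2, at 25.6 CPM. The order of single libraries carries no test. The Pearson correlation of log2 CPM between Skil and Pmepa1 over the 6 libraries was 0.89, the highest of the 21 pairs of members, and it includes the difference between treatments.

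By the same correlation the closest patterns among 9732 protein-coding genes at 5 CPM or more were, for Skil, those of Map7d2, a microtubule-associated protein gene (0.989), and Scrg1 (0.986), and for Pmepa1 those of Tspan7, a tetraspanin (0.983), and Chfr, a mitotic checkpoint ligase (0.983). Ski was closest to Kctd9 (0.997) and the adenylyl cyclase gene Adcy9 (0.996), and 777 genes correlated with it at more than 0.9, against 56 for Skil and 70 for Pmepa1. Tgif1 was closest to Ehd2 (0.995) and Stard4 (0.975), Tgif2 to Smarcc1 (0.999) and Acd (0.997), Smurf1 to Tmem94 (0.991) and Wbp2 (0.981), and Smurf2 to Ppp1r3e (0.995) and Dse (0.985). With 6 libraries and this many genes such values are common and describe the libraries only.

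Genes that work with the members were read from lists chosen by function. Of 14 tested corepressor partners of SKI, SnoN and TGIF, 0 passed without the block, against 0.0464% of all tested genes. In that fit 1 had an unadjusted p under 0.05, against 5.38% of all tested genes. With the block 1 fell, against 0.364% of all tested genes. This was Tbl1xr1, which encodes a subunit of the NCoR complex, at 19.2, 15.4 and 15.1 CPM in BMP2 libraries 1, 2 and 3, against 48.5, 33.3 and 28.8 CPM in PBS libraries 1, 2 and 3. The groups did not overlap, and with the block it fell by 1.13 (SE 0.16) on the log2 scale (edgeR adjusted p 0.0379, and 0.216 without batch 2). Without batch 1, the batch of PBS 1, the log2 fold change of Tbl1xr1 with the block was -1.03. Sin3a, a deacetylase scaffold, and Sap30, a subunit of its complex, were at -0.43 and -0.79 on the log2 scale with the block, short of the threshold (edgeR adjusted p 0.218 and 0.146). At an unadjusted p under 0.05 with the block there were 4 partners, against 17% of all tested genes. The remaining one was the deacetylase gene Hdac1, named after its values were seen, which was higher in each batch with a log2 fold change of 0.32 and did not pass. With the block the list had a median log2 fold change of -0.15, against 0.014 over all tested genes.

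Among relatives of the members in the SKI/DACH and TALE homeobox families, to which TGIF belongs, the median log2 fold change of 12 tested genes with the block was -0.22, against 0.014 over all tested genes. Higher in all 3 batches was 1 gene, and 5 were lower in all 3, against 22.8% and 21.1% of all tested genes. Meis3 had a log2 fold change of 0.64 and Pknox2 of -0.98 with the block, and neither passed (edgeR adjusted p 0.232 and 0.19).

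Of the 5 tested ligases of the NEDD4 family other than the SMURFs, 0 passed in either fit and 0 had an unadjusted p under 0.05. Nedd4, the ligase that names the family, was at 1290 ± 153 CPM with BMP2 and 1540 ± 164 CPM with PBS (SD, n = 3 each), and Itch and Wwp1 had log2 fold changes of -0.18 and 0.05. Of 7 tested genes that control the stability of SKI, SnoN or the SMURFs, 0 passed and 0 had an unadjusted p under 0.05 in either fit. Beside both lists, 5.38% of all tested genes were at that level without the block and 17% with it. Fbxl15, which marks SMURF1 for degradation, was lower in each batch (log2 fold change -0.58, edgeR adjusted p 0.883 without the block), and Fzr1, an activator of the ligase that degrades SnoN, and Rlim, a ligase for SMURF2, had values of -0.29 and -0.21.

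Of 12 tested other brakes on receptors and SMADs, 0 passed in either edgeR fit, with 1 and 4 at an unadjusted p under 0.05 without and with the block, against 5.38% and 17% of all tested genes. Smad6 had a log2 fold change of 3.47 (SE 0.59) with the block (edgeR adjusted p 0.0665), Smad7 0.77 (0.379) and Fkbp1a, which encodes a binding protein of type I receptors, -0.36 (0.302). Of 17 tested SMADs, receptors and TGF-beta ligands, 0 passed without the block, with 2 at an unadjusted p under 0.05, against 5.38% of all tested genes. With the block 1 rose, against 0.371% of all tested genes. This was Smad9, which rose by 3.69 (SE 0.35, edgeR adjusted p 0.0241). Tgfbr3 and Acvr2b, a co-receptor and an activin receptor, were at -0.71 and -1.06 on the log2 scale with the block, short of the threshold (edgeR adjusted p 0.284 and 0.215).

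The 12 tested TGF-beta response genes did not share a direction: the median with the block was -0.064, 1 was higher and 6 were lower in all 3 batches (22.8% and 21.1% of all tested genes). Without the block 0 passed, and 2 had an unadjusted p under 0.05, against 5.38% of all tested genes. Col4a1, a basement membrane collagen, fell by 2.05 (SE 0.22) with the block (edgeR adjusted p 0.0241, and 0.0725 without batch 2), at 7.26, 5.72 and 2.17 CPM in BMP2 libraries 1, 2 and 3, against 40.6, 21.6 and 7.13 CPM in PBS libraries 1, 2 and 3. Without batch 1, the batch of PBS 1, the log2 fold change of Col4a1 with the block was -1.83. Its groups overlapped, since it was lower in each batch but PBS 3 lay below BMP2 1. Fn1, which encodes fibronectin, was at -0.61 on the log2 scale, short of the threshold (edgeR adjusted p 0.171). Of 8 tested BMP response genes, 4 (Id2, Smad9, Atoh8 and Nog) rose with the block, against 0.371% of all tested genes. Without the block 0 passed, 7 having an unadjusted p under 0.05, against 5.38% of all tested genes. Nog and Atoh8 reached at most 0.0651 and 0.225 CPM in any PBS library. They passed the low-count filter through the BMP2 libraries, so their being tested already favoured a rise. With the block the median of the 8 genes was 3.6, and without batch 2 Nog did not pass (edgeR adjusted p 0.134). All these lists were chosen with earlier results on these libraries known, so their counts are descriptions.

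**Figure D4:**
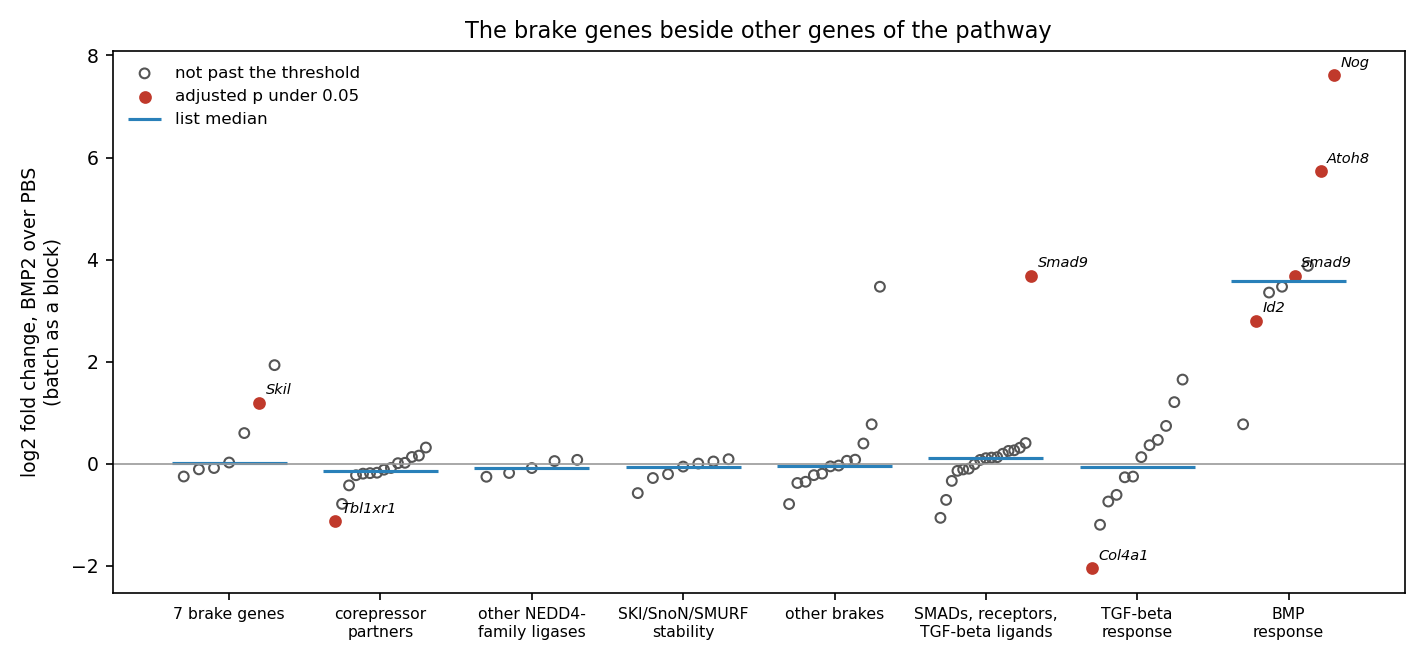
Log2 fold change of BMP2 over PBS with batch as a block (y axis) for the 7 genes and 7 lists of related genes (x axis); each point is a tested gene, filled points have an edgeR adjusted p under 0.05, and lines are list medians. Skil is the filled point among the 7 genes, at 1.19, and lies below the 4 filled BMP response genes.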

How the data were processed

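The table the authors deposited holds estimated counts, fractional and not scaled to depth. The submitters' processing notes name kallisto 0.44.0 and the build GRCm38.p6. No source used here states the annotation release, the strand setting or how transcripts were joined into genes. Identifiers were matched to GENCODE M21 (34679 of 34981). Counts were rounded and tested with edgeR 4.0.16 in R 4.3.3 (default low-count filter, TMM, quasi-likelihood test of treatment, Benjamini-Hochberg over 12929 genes, threshold 0.05). Each SE is the fold change over the root of its F statistic, and intervals are 95%. Batch differences use log2 CPM with a prior count of 2.

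Per the labels, libraries with the same replicate number belong to 1 batch. Deviations from group means correlated at 0.51, 0.25 and 0.52 between same-batch libraries, so the model with batch as a block (2 residual degrees of freedom, against 4) is given beside the other. The edgeR tests and intervals also draw on the spread of other genes, so they use more degrees of freedom than these. Nothing in the labels says whether cultures within a batch were otherwise separate, so p-values measure the spread between these libraries. With the block they measure the spread left between them once batch differences are removed. Ratios of paired genes used a pseudocount of 0.5 and an exact permutation test.

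The members, gene lists and models were chosen with earlier results on these data known. The model without the block was set as the main one and the block as an alternative. The members are named in every case, with up to 3 genes of smallest unadjusted p from each list and the 2 closest patterns for each member. Some genes that this rule or the marker lists hold are not reported here. Other genes called with the block, and Id2, Atoh8 and Nog, were named after their values were seen. Alternatives were the size factors of DESeq2 1.42.0, its Wald test, quantile normalization with limma-trend (limma 3.58.1), 2 other filters, each library or batch left out, pseudogene copies summed, and, added after the data were seen, the block with the other settings. The code was tested on simulated counts.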

Additional observations from a re-analysis of the deposited data

How the results depend on the processing

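Genes called over the whole table numbered 6 without the block and 95 with it. The count was 35 with no low-count filter and 130 with the DESeq2 Wald test, and 2 to 10 without each library. With the block it was 98 with DESeq2 size factors, 109 with quantile normalization and limma-trend, 500 with no filter, 111 at a mean of at least 100 counts and 653 with the DESeq2 Wald test, and 531, 27 and 218 without batches 1, 2 and 3.

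Of the 7 members, 0 were called without the block, and 2 with the DESeq2 Wald test. With the block the number was 1 at the default settings, with DESeq2 size factors, with quantile normalization and at a mean of at least 100 counts, 2 with no filter and with the DESeq2 Wald test, and 0 to 2 without each batch. Skil passed with the block in all 6 full fits, at log2 fold changes of 1.19, 1.18 with size factors, 1.14 with quantile normalization, 1.21 with no filter, 1.19 with the stricter filter and 1.18 with DESeq2 (1.17 without the block), and without single batches it was 1.13 to 1.24. Pmepa1 passed with no filter and the block (1.94), with DESeq2 (2.23 without the block, 1.91 with it) and in 2 of the 3 fits without a batch, at 2.48, 1.48 and 1.78 without batches 1, 2 and 3. Without single libraries and without the block, 0 members passed, with log2 fold changes of 0.974 to 1.40 for Skil, 1.37 to 2.68 for Pmepa1 and 0.0533 to 0.77 for Ski. The signs of Tgif2 (0.0956 without BMP2 replicate 1) and Smurf2 (-0.102 without PBS 1, -0.088 without BMP2 replicate 2, -0.0793 with the block and without batch 1) turned, with ranges without single libraries of -0.307 to 0.0956 and -0.102 to 0.111, all with no call. The Skil over Ski ratio was 0.139 to 1.20 without single libraries, and that of Tgif2 over Tgif1 turned to -0.00661 without BMP2 replicate 3. The causes of these shifts were not tested. Fits with fewer libraries have fewer degrees of freedom. With the block, 531 and 218 genes were called without batches 1 and 3, against 95 with all libraries. Leaving out a single library also leaves its batch partner unpaired. As paired analysis, the mean within-batch differences of the 3 ratios equal the unpaired ones, with exact sign-flip p of 0.5, 1 and 0.75, where 3 pairs allow no less than 0.25. The other alternatives changed no call or direction of a member. Summing pseudogene copies, possible for Tgif1 and Tgif2 alone, added at most 1.02 counts. All members lay far above the 3-count level of 0.103 CPM. How depth or the number of libraries limits the calls was not tested.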
